A study of Mus musculus with 6 samples.

Results

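The 33 genes described here encode the machinery that folds new proteins in the endoplasmic reticulum (ER), the membrane compartment through which secreted and surface proteins pass, and the response to folding stress. They form a list of named chaperones, disulfide isomerases, degradation factors, translocation subunits and stress sensors, each read from its brightest probe set, and make up 33 of the 19938 genes with a value. The cells are CAR cells, the Cxcl12-abundant reticular cells of mouse bone marrow stroma, sorted by flow cytometry from femur and tibia and read on Affymetrix mouse gene arrays. One population had been targeted by Dmp1-Cre and the other had not, with 3 arrays each. All mice were C57BL/6, 7 weeks old and of the genotype Dmp1-Cre Cxcl12-gfp/+, so both populations came from animals with the Cre and with a GFP allele at Cxcl12. By the series design the animals numbered 3 and each sample came from a single mouse, but the labels do not tie replicate numbers to mice. By that count 3 animals gave 3 arrays of each population, so arrays share mice. Which ones do is not given, and the test below treats all arrays as independent. Regulatory sequence of Dmp1 drives the Cre, and Dmp1 is a matrix gene of late osteoblasts and osteocytes. How targeting was read in the sort is not given in the sources used here.

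Proteins enter the ER through the Sec61 channel and fold with the help of the chaperone BiP (Hspa5), of lectin chaperones that read the sugar chains, and of isomerases that form disulfide bonds. Proteins that fail to fold lose mannose residues through the EDEM proteins, pass back through a channel around the ubiquitin ligase HRD1 (Syvn1), and are degraded in the cytosol. The unfolded protein response adjusts this capacity through the sensors IRE1 (Ern1), ATF6 (Atf6) and PERK (Eif2ak3). IRE1 splices the mRNA of the transcription factor XBP1, ATF6 is cut to release a transcription factor, and PERK slows translation and favours the factor ATF4. Cells that secrete much protein, such as osteoblasts and plasma cells, are known for a large ER.

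Promoter windows from RefSeq (GRCm38.p6), from 250 bases before to 50 bases after an annotated start, were found for 29 of the 33 genes, and Hyou1, Manf, Atf6 and Derl1 were not in that table. The ER stress element, the motif through which ATF6 and its partner NF-Y are known to act, was searched on both strands as CCAAT and CCACG with 9 bases between them. It was present in 9 of the 29 genes, or 31.0%, and in 37 of the 27025 genes with a window, or 0.137% (39 of 32851 windows, 0.119%). Both the list and the motif were chosen for their known part in ER stress, so this contrast is a description and not a test. The stretches below show it with 20 bases on either side, in the direction of the gene. They are given because the same motif recurs in chaperone, isomerase and degradation genes, and capitals mark its ends, written CGTGG and ATTGG where the match lies on the opposite strand.
Hspa5, chr2:34772005-34772063, plus strand: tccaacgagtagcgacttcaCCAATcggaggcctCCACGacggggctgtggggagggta
Pdia6, chr12:17266471-17266529, plus strand: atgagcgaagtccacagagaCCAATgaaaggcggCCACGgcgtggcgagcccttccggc
Dnajc3, chr14:118937807-118937865, plus strand: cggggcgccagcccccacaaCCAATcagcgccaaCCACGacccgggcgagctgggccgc
Canx, chr11:50325780-50325838, minus strand: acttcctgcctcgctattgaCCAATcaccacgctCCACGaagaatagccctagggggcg
Syvn1, chr19:6046512-6046570, plus strand: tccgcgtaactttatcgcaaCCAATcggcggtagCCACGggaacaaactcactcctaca
Hsp90b1, chr10:86705513-86705571, minus strand: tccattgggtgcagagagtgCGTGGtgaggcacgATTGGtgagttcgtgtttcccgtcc
Hsp90b1, chr10:86705618-86705676, minus strand: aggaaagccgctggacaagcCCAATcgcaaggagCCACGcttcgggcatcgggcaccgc
Calr, chr8:84847055-84847113, minus strand: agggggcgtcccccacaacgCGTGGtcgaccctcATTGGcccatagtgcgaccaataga
Creld2, chr15:88819500-88819558, plus strand: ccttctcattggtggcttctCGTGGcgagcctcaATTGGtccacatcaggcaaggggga
Derl3, chr10:75893222-75893280, plus strand: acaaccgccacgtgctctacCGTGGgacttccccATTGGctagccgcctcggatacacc

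Hsp90b1 had 2 matches, 1 on each strand. All of these matches lay before the annotated start, the nearest in Syvn1, at positions -44 to -26, where the start is 0. The related ER stress element II, ATTGG and CCACG with 1 base between them, was found in 2 of the 29 genes, Herpud1 and Dnajb11, and in 0.044% of all genes with a window. An amino acid response core, TGATGNAA, to which ATF4 is known to bind, was found in Herpud1 and Trib3, against 4.51% of all genes. The XBP1 element TGACGTGG was found in 0 of the 29 genes and in 0.714% of all genes. A match describes these letters only. The Herpud1 stretch below is shown because it holds both an amino acid response core (TTGCATCA on this strand) and an ER stress element II, each in capitals.
Herpud1, chr8:94386307-94386397, plus strand: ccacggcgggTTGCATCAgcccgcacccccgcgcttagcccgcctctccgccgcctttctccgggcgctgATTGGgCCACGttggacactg

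**Figure D1:**
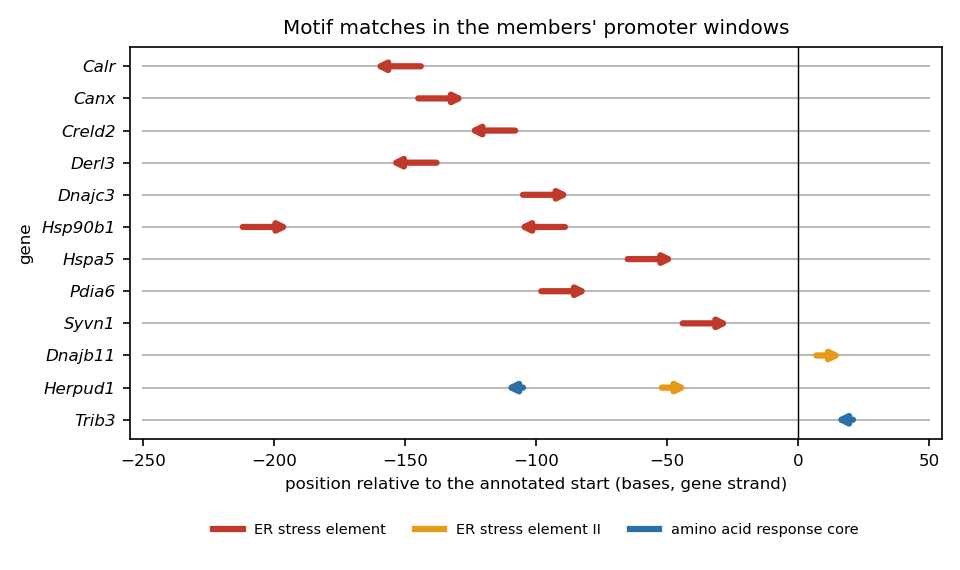
Motif matches in the promoter windows of the 12 genes with at least 1 match, drawn against distance in bases from the annotated start, which is base 0. Arrows run in the direction of the match. The ER stress element lies between positions -212 and -26 in 9 genes.

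The EDEM genes, of which Edem1 and Edem3 had the widest differences among the 33 genes, had no match to any of these 4 motifs. Over their whole windows, on both strands, Edem1 held 1 CCAAT and 2 CCACG, Edem2 held 0 and 1, and Edem3 held 2 and 2, none spaced as in the element. The 100 bases before each start are printed, a shorter span than the one in which the element was found above, with any CCAAT or CCACG on either strand in capitals.
Edem1, chr6:108828541-108828640, plus strand: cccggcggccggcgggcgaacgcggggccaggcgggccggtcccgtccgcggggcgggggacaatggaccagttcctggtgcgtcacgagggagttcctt
Edem2, chr2:155729476-155729575, minus strand: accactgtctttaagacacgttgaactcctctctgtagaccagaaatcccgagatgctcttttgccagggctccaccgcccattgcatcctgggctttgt
Edem3, chr1:151755274-151755373, plus strand: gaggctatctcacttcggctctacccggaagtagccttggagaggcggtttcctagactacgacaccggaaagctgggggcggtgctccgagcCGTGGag

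Each array value below is the log2 of the deposited intensity of 1 probe set per gene, the brightest of those that name that gene alone. Levels are read across arrays for 1 gene and not between genes, because probe sets differ in how strongly they bind. Array medians ran from 79.4 to 87.5 on the linear scale, array pairs correlated across the tested genes at 0.91 to 0.96, and all 33 genes lay above the limit of log2 intensity 6.00 under which genes were left out as dim. The limma test across 13292 genes called 0 genes at an adjusted p under 0.05, or 0% (634 had an unadjusted p under 0.05), so no gene below passed it and differences are given as values. Dmp1 itself was at 6.91 to 7.51 on the non-targeted and 9.89 to 11.28 on the targeted arrays. All 12 CAR and stromal markers were above the dim limit and lower in mean in targeted cells (median -0.32, 0 called by limma, against 0% of all genes), with mean log2 levels of 11.34 to 11.71 on non-targeted and 11.05 to 11.48 on targeted arrays.

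Most of the ER genes had a lower mean in targeted cells, by small amounts. Of the 33, 26 were lower and 7 higher (78.8% lower, against 51.1% of all genes tested), and the median log2 difference, targeted minus non-targeted, was -0.18 against -0.005 over all genes. None of the 33 passed (limma, smallest adjusted p = 0.824, for Edem1), against a background of 0%. All targeted arrays lay below all non-targeted arrays for 5 genes, Edem1, Edem2, Edem3, Dnajb9 and Sdf2l1, which is 15.2% of the list where 5.76% of all genes did. The reverse held for 1 gene, Sec61b (3.03%, against 3.32% of all genes). An unadjusted p under 0.05 with a lower level was found for 2 genes (6.06%, background 3.42%) and with a higher level for 0 (background 1.35%). For 31 of the 33 the 95% interval included 0, and for 31 the difference was under 1.5-fold. In bulk RNA of sorted cells, fewer cells with a high level and less RNA per cell cannot be told apart.

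The size of this shift varied with single arrays and with the scaling. Without non-targeted replicate 2 the median was -0.08, with 24 genes lower, and without non-targeted replicate 1 it was -0.27, with 23 lower. Cyclic loess scaling gave -0.11, with 23 genes lower. Brighter genes as a whole had lower values in targeted cells: among tested genes with a mean log2 intensity of 8 to 10, 60.1% were lower with a median of -0.07, where 16 of the listed genes had a median of -0.26. Among genes up to 8, 47.5% were lower, and 11 listed genes had a median of -0.16. Above 10, 62.4% of all genes were lower with a median of -0.07, and 6 listed genes had a median of -0.10. After cyclic loess the medians of the listed genes in these ranges were -0.15, -0.18 and -0.02, in order of brightness. Those of all tested genes were then 0.01, 0.00 and 0.01.

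**Figure D2:**
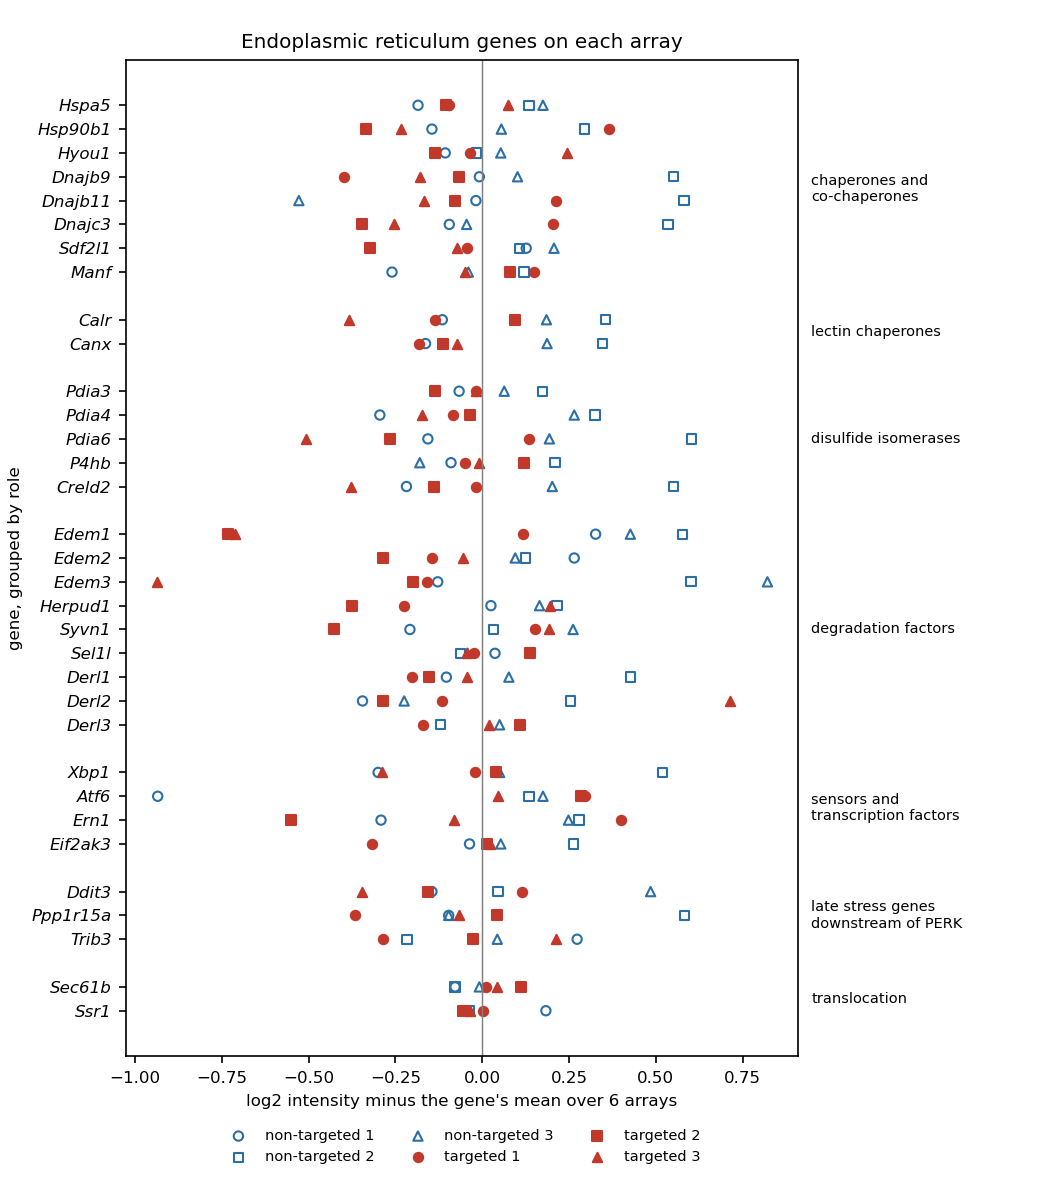
Log2 intensity of each of the 33 genes on each array, minus the gene's mean over 6 arrays, with genes grouped by role (open blue symbols, non-targeted replicates; filled red symbols, targeted replicates). Edem1, Edem2, Edem3, Dnajb9 and Sdf2l1 have all 3 red symbols to the left of all 3 blue ones, and non-targeted replicate 2 is the highest array for 16 genes.

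The widest differences lay in 2 degradation genes, Edem1 and Edem3. Edem1, a lectin that draws misfolded glycoproteins into degradation and a known XBP1 target, was at 7.66, 7.91 and 7.76 on the non-targeted arrays and at 7.45, 6.60 and 6.62 on the targeted ones. All targeted values were below all non-targeted ones, and targeted replicate 1 lay nearer to the non-targeted range than to the other targeted arrays. The group means were 7.78 ± 0.13 and 6.89 ± 0.49 (SD, n = 3 each), a log2 difference of -0.88 (SE 0.25, 95% interval -1.46 to -0.31) or 1.84-fold lower (limma, adjusted p = 0.824). In fits without each array in turn it ran from -1.16, without targeted replicate 1, to -0.74.

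Edem3, a mannosidase of the same family, was at 8.13, 8.86 and 9.08 in non-targeted and 8.10, 8.06 and 7.32 in targeted cells. The groups did not overlap, but non-targeted replicate 1 lay only 0.03 above the highest targeted array. The log2 difference was -0.86 (SE 0.31, 95% interval -1.57 to -0.15), or 1.82-fold lower (limma, adjusted p = 0.967), and it ran from -1.14 without non-targeted replicate 1 to -0.61 without targeted replicate 3. Edem2, which starts the trimming of mannose, differed less and with little spread, at 8.04, 7.90 and 7.87 against 7.63, 7.49 and 7.72. Every targeted value was lower. Its log2 difference of -0.32 had an SE of 0.15 and a 95% interval of -0.66 to 0.02 (adjusted p = 1), with a range of -0.37 to -0.26 without each array. The 3 EDEM genes were lower under quantile, median and cyclic loess scaling as well, with medians of -0.81, -0.86 and -0.80.

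The channel and ligase components had smaller differences, and whether they differ from the EDEM genes was not tested. Herpud1, which organises the HRD1 complex and responds to ER stress, was at 9.88, 10.07 and 10.02 against 9.63, 9.48 and 10.05. Targeted replicate 3 lay within the non-targeted range, and the log2 difference of -0.27 (SE 0.19) ran from -0.44 without that array to -0.15 without targeted replicate 2. Derl1, a channel subunit, was at 8.73, 9.26 and 8.91 against 8.63, 8.68 and 8.79, a difference of -0.27 (SE 0.18) with overlap, and of -0.12 without non-targeted replicate 2. Syvn1, the HRD1 ligase, was at 8.75, 8.99 and 9.22 against 9.11, 8.53 and 9.15, a difference of -0.06 whose sign turned under cyclic loess scaling (0.02). Its cofactor Sel1l was nearly level, at 7.25 ± 0.05 against 7.30 ± 0.10 (SD, n = 3), with a 95% interval of the log2 difference of -0.28 to 0.37.

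Derl2 and Derl3 belong to the same channel family as Derl1. Derl2 had the highest of its 6 values, 9.64, in targeted replicate 3, and 8.58 to 9.18 elsewhere, so that its difference of 0.21 turned to -0.09 without that array. Derl3, which is known to be high in plasma cells and pancreas, was at 6.66 to 6.89 in non-targeted and 6.61 to 6.89 in targeted cells. The 9 degradation genes together had a median difference of -0.27, with 7 lower, and their mean deviation was below that of every non-targeted array on each targeted array. That median was -0.12 without non-targeted replicate 2 and -0.15 without targeted replicate 2.

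**Figure D3:**
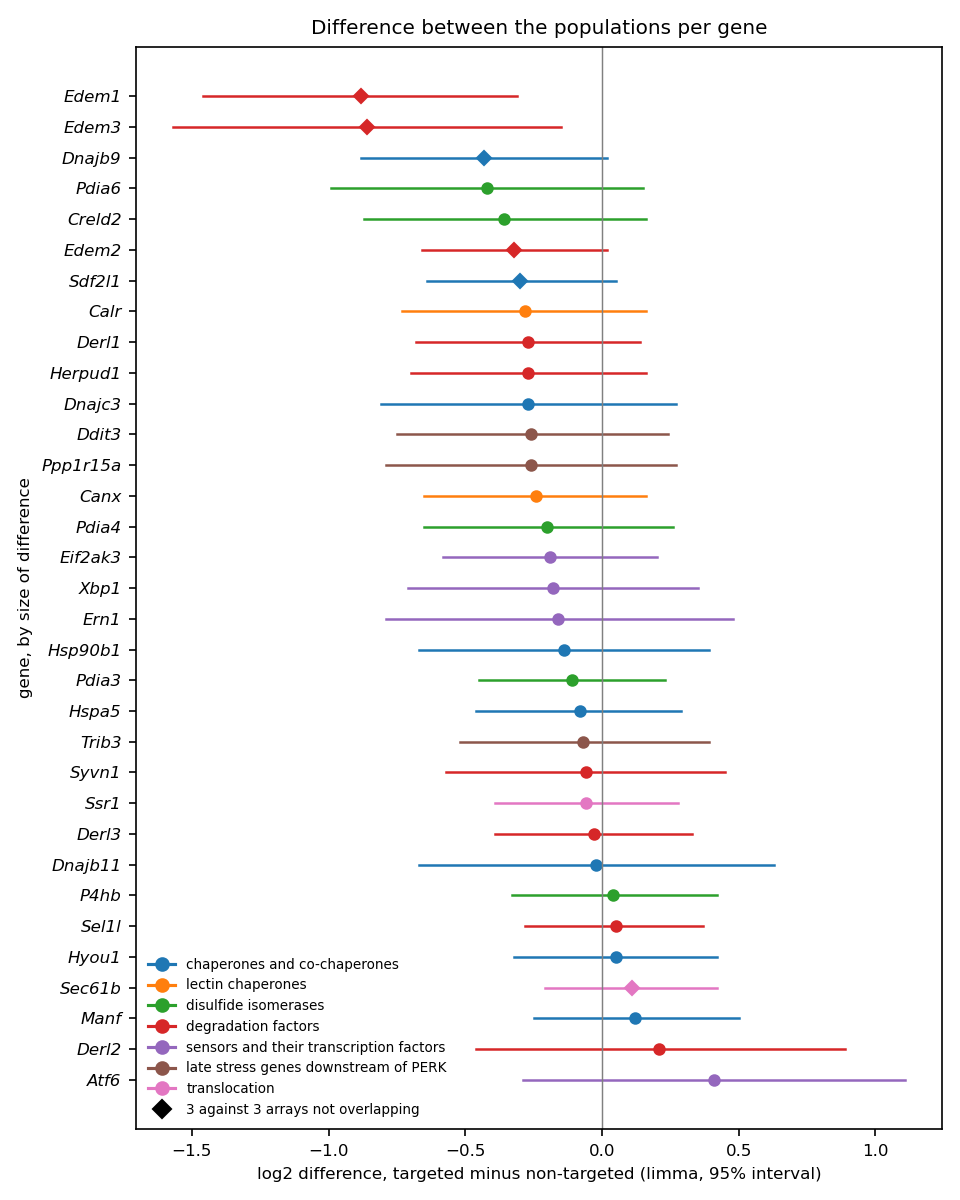
Log2 difference (targeted minus non-targeted) of each gene with its 95% interval from limma, coloured by role and ordered by size. Diamonds mark genes whose 3 targeted and 3 non-targeted arrays do not overlap, and Edem1 and Edem3 are the only genes of the list whose interval excludes 0.

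Among chaperones, the major ones had small differences. Hspa5, or BiP, the central ER chaperone and the usual gauge of ER stress, was at 11.06, 11.38 and 11.42 in non-targeted and 11.15, 11.14 and 11.32 in targeted cells. The groups overlapped, and the log2 difference of -0.08 had a 95% interval of -0.46 to 0.29, which lies within 1.5-fold in either direction. Hsp90b1, the ER member of the HSP90 family (GRP94), was at 10.95, 11.39 and 11.15 against 11.46, 10.76 and 10.86. Its highest array was targeted replicate 1 and its lowest were the other targeted arrays, so the difference of -0.14 became -0.36 without that array and -0.00 without targeted replicate 2. Hyou1, a nucleotide exchange factor for BiP, was at 7.89 to 8.05 against 7.86 to 8.24 and differed by 0.05.

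The DNAJ co-chaperones, which hand substrates to BiP, differed in size. Dnajb9 (ERdj4), a known XBP1 target that also restrains IRE1, was at 9.35, 9.91 and 9.46 against 8.96, 9.29 and 9.18. All targeted values were lower, the nearest by 0.05, and the log2 difference was -0.43 (SE 0.20, 95% interval -0.88 to 0.02). It was -0.26 without non-targeted replicate 2, the highest array. Dnajc3 (p58IPK), an inhibitor of PERK, was at 9.43, 10.06 and 9.48 against 9.73, 9.18 and 9.27, and its difference of -0.27 became -0.07 without the same array. Dnajb11 (ERdj3) ran from 7.36 to 8.47 in non-targeted cells, wider than the 7.72 to 8.10 of targeted cells, and its difference of -0.02 was positive under quantile (0.04) and cyclic loess (0.03) scaling.

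Sdf2l1, a partner of Dnajb11 induced by ER stress, had all targeted arrays lower, the nearest by 0.16, at 8.01, 7.99 and 8.09 against 7.84, 7.56 and 7.81. Its log2 difference was -0.30 (SE 0.15, 95% interval -0.64 to 0.05) and ran from -0.35 to -0.21 without each array. Manf, a small ER stress protein that cells can also secrete, was at 8.39, 8.77 and 8.61 against 8.80, 8.73 and 8.60, a difference of 0.12 with overlapping arrays. Of the lectin chaperones, which hold glycoproteins until they are folded, Calr (calreticulin) was at 9.87, 10.34 and 10.17 against 9.85, 10.08 and 9.60. Canx (calnexin) was at 10.63, 11.14 and 10.98 against 10.61, 10.68 and 10.72. Both were lower in mean, by -0.28 (SE 0.19) and -0.24 (SE 0.17), and in both non-targeted replicate 1 fell among the targeted values. Without that array the differences were -0.41 and -0.39, while Calr was at -0.16 without targeted replicate 3 and Canx at -0.13 without non-targeted replicate 2.

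Of the 5 disulfide isomerases 4 had a lower mean in targeted cells. Pdia6, which also binds the IRE1 sensor, was at 9.48, 10.24 and 9.83 against 9.77, 9.37 and 9.13, a log2 difference of -0.42 (SE 0.25, 95% interval -0.99 to 0.15). Creld2, a stress-induced protein with isomerase activity, was at 8.42, 9.19 and 8.84 against 8.62, 8.50 and 8.26, a difference of -0.36 (SE 0.22). In each, non-targeted replicate 2 was the highest array and non-targeted replicate 1 lay inside the targeted range, so leaving out replicate 2 gave -0.23 and -0.17, and leaving out replicate 1 gave -0.61 and -0.55. Pdia4 was at 9.39 ± 0.34 against 9.20 ± 0.07 (SD, n = 3 each), with non-targeted replicate 1 below all targeted arrays, a difference of -0.20 that was -0.39 without that array and -0.08 without non-targeted replicate 2. A dimmer second probe set for Pdia4 was at 6.31 to 6.61 on 5 arrays and 8.02 in targeted replicate 3, so with the mean of both probe sets the difference was 0.16.

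Pdia3, the partner of the lectin chaperones, was at 11.06 ± 0.12 against 10.95 ± 0.07 (SD, n = 3), a difference of -0.11. P4hb, the founding isomerase and a subunit of collagen prolyl hydroxylase, was at 10.03, 10.33 and 9.94 against 10.07, 10.24 and 10.11. The targeted values lay within the non-targeted range, and the log2 difference of 0.04 had a 95% interval of -0.33 to 0.42. Over the 5 isomerases the median was -0.20, and it was -0.08 without non-targeted replicate 2, -0.12 without non-targeted replicate 3 and -0.39 without non-targeted replicate 1.

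None of the sensors passed the test, and their arrays overlapped between groups. Atf6 had the largest positive difference of the list, 0.41 (SE 0.30), and 1 array set its size: non-targeted replicate 1 was at 8.13, the other non-targeted arrays at 9.20 and 9.24, and the targeted arrays at 9.36, 9.35 and 9.11. Without non-targeted replicate 1 the difference was 0.05. Ern1, or IRE1, was at 6.68, 7.25 and 7.22 against 7.37, 6.42 and 6.89, with the highest and the lowest value both in targeted cells. Eif2ak3, or PERK, was at 6.83, 7.13 and 6.92 against 6.55, 6.88 and 6.89, a difference of -0.19 (SE 0.17). Xbp1 was at 9.28, 10.10 and 9.63 against 9.56, 9.62 and 9.29. Its difference of -0.18 turned to 0.04 without non-targeted replicate 2, and its intensity was not split into spliced and unspliced mRNA.

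Genes downstream of PERK had overlapping arrays and did not pass either. Ddit3 (CHOP), a transcription factor of prolonged stress, was at 8.95, 9.14 and 9.58 against 9.21, 8.94 and 8.75, a difference of -0.26 (SE 0.21) that became -0.08 without non-targeted replicate 3. Ppp1r15a (GADD34), which restores translation, was at 7.55, 8.23 and 7.55 against 7.28, 7.69 and 7.58. The difference of -0.26 became -0.03 without non-targeted replicate 2, the 1 high array. Trib3, a pseudokinase induced through ATF4 and CHOP, was at 6.95, 6.46 and 6.72 against 6.39, 6.65 and 6.89, with overlapping ranges.

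The 2 translocation genes had small differences. Sec61b, a subunit of the channel, was at 11.54, 11.54 and 11.61 against 11.63, 11.73 and 11.66, so all targeted values were higher, by a mean of only 0.11 (SE 0.14). Of its other probe sets, 1 was also higher on every targeted array (11.40, 11.51 and 11.59 against 11.67, 11.73 and 11.68) and 1 overlapped (11.37, 11.29 and 11.37 against 11.30, 11.40 and 11.41). Ssr1, a subunit of the translocon-associated protein complex, was at 9.02, 8.80 and 8.78 against 8.84, 8.78 and 8.80, a difference of -0.06 that was 0.02 under cyclic loess scaling.

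By arm of the response, with each gene put under the arm it is best known for although many answer to several, the medians were small. The IRE1 and XBP1 arm (9 genes, among them Dnajb9, Edem1, Dnajc3 and Sec61b) had 8 lower and a median of -0.18. The ATF6 arm (13 genes, among them Hspa5, Hsp90b1, Herpud1 and Creld2) had 9 lower and a median of -0.08. All 4 genes of the PERK arm were lower, with a median of -0.22. Without non-targeted replicate 2 these medians were -0.07, -0.06 and -0.15, and without non-targeted replicate 1 they were -0.37, -0.20 and -0.31. With array weights they were -0.24, -0.26 and -0.05, another order. The ATF6 median was -0.02 without non-targeted replicate 3, the PERK median -0.11 without targeted replicate 1, and the differences between arms were not tested. Put under no single arm were 7 genes, among them Canx, Edem2 and Edem3, with 5 lower and a median of -0.24. Their median was -0.12 without non-targeted replicate 2. The 9 genes with an ER stress element in the printed stretches were all lower in mean, by -0.42 (Pdia6) to -0.03 (Derl3), with a median of -0.24. Under cyclic loess scaling 8 of the 9 were lower (median -0.17). The count was also 8 without non-targeted replicate 1 or 3, without targeted replicate 1 or 2, and with replicates 2 and 3 only. The median was -0.10 without non-targeted replicate 2 and -0.38 without non-targeted replicate 1. The other 20 genes with a promoter window had 16 lower and a median of -0.18, among them the EDEM genes, and the difference between these groups was not tested.

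**Figure D4:**
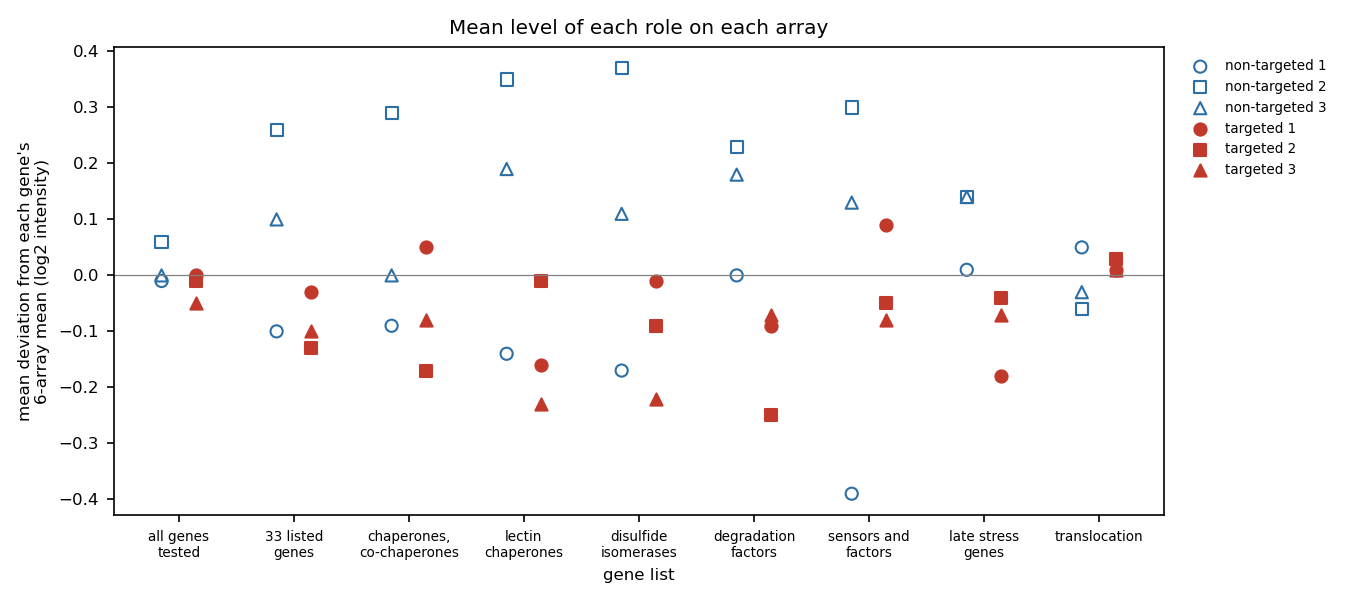
Mean deviation of each role's genes from their own 6-array means, in log2 intensity, on each array (open blue, non-targeted; filled red, targeted), with all 13292 tested genes at the left. The 33 genes together are at -0.10, 0.26 and 0.10 on the non-targeted arrays and at -0.03, -0.13 and -0.10 on the targeted ones.

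Arrays of the same population were not alike for these genes. Their mean deviation was -0.10, 0.26 and 0.10 on the non-targeted arrays and -0.03, -0.13 and -0.10 on the targeted ones, so non-targeted replicate 1 lay among the targeted arrays. Over all tested genes the same quantity ran only from -0.05 to 0.06, with non-targeted replicate 2 again the highest. Non-targeted replicate 2 held the highest value for 16 of the 33 genes, and targeted replicate 2 the lowest for 11. The CAR and stromal markers were likewise highest in non-targeted replicate 2, with mean levels of 11.34, 11.71 and 11.52 on non-targeted and 11.48, 11.05 and 11.07 on targeted arrays, and their part in the ER genes' values was not tested.

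For markers of other cells the part in these values was not tested either. Osteoblast markers (9 of 12 tested, 8 higher, 6 with all targeted arrays above, where 3.32% of all genes were) had mean levels of 9.64 to 9.77 on non-targeted and 10.30 to 11.11 on targeted arrays. These counts and levels include Dmp1, whose regulatory sequence drives the Cre and whose difference, 3.28, was the largest of the list. The list is therefore not independent of how the populations were defined. Plasma cell markers, of which 5 of 10 were above the dim limit, were at 7.32 to 7.59 and 7.17 to 7.55. Neutrophil and myeloid precursor markers (11 of 14 tested) had 9 lower, 2 higher and a median log2 difference of -1.11, with overlapping arrays for every gene. Their mean levels were 8.49 to 9.11 and 6.66 to 8.78, lowest in targeted replicate 1, where the ER genes had a mean deviation of -0.03. Of B cell markers, which include Ebf1 of the stromal list, 6 of 10 were tested (7.38 to 7.69 against 7.14 to 7.57). In that list 4 were lower, Vpreb1 the most, by -1.54 (SE 0.57) with overlap. The 2 higher, Vpreb3 and Pax5, had all targeted arrays above, where 3.32% of all genes did. Macrophage markers, which include Vcam1 of the stromal list, had 8 of 10 tested (7.11 to 7.35 against 6.90 to 7.45). Erythroid markers had 4 of 8 tested (6.77 to 7.03 against 6.74 to 7.09) and endothelial markers 3 of 8 (6.25 to 6.62 against 6.32 to 6.53).

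Neighbouring pathways were set beside the listed genes in 9 further lists with 166 tested genes, of which 113 were lower and 0 passed (limma). N-glycosylation and glucose trimming had 16 of 18 lower and a median of -0.28. Its mean deviation was -0.03, 0.32 and 0.14 on the non-targeted and 0.03, -0.12 and -0.34 on the targeted arrays, so the groups overlapped and non-targeted replicate 2 and targeted replicate 3 lay farthest out. Magt1, an oxidoreductase subunit of the oligosaccharyltransferase, was at 8.83, 8.60 and 8.39 against 8.08, 7.76 and 7.54, a log2 difference of -0.81 (SE 0.20, adjusted p = 0.758). Its paralogue Tusc3 was at 9.28, 9.18 and 9.40 against 8.73, 8.82 and 8.94, a difference of -0.46 (SE 0.15). Both were lower on every targeted array, while Mogs, the glucosidase of the first trimming step, was higher on every targeted array, by 0.37 (SE 0.16). Of the 18 genes 3 had all targeted arrays below and 1 had all above, where 5.76% and 3.32% of all genes did. Further degradation factors had 20 of 25 lower and a median of -0.18, with Selenok at -0.35 the only one with all targeted arrays below, where 5.76% of all genes were.

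Oxidative folding genes were near level as a list (13 of 20 lower, median -0.06), but Tmx1, a transmembrane thioredoxin of the ER, was at 7.87, 8.51 and 8.26 against 6.83, 7.47 and 7.32. Every targeted value was lower, and the log2 difference of -1.01 (SE 0.24, 95% interval -1.55 to -0.46, adjusted p = 0.734) was wider than any in the 33 genes. Txndc12 differed by -0.50 (SE 0.20), also without overlap. In this list 3 genes had all targeted arrays below and 1 had all above, where 5.76% and 3.32% of all genes did. The translocon and signal peptidase list had 17 of 23 lower (median -0.11), with Srp19, a signal recognition particle subunit, higher by 0.43 (SE 0.15). Srp19 alone of that list was higher on all targeted arrays, where 3.32% of all genes were. COPII and ER exit genes had 15 of 24 lower (median -0.16), and Tmed9, a cargo receptor, was higher by 0.80 (SE 0.33) with overlap.

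Other PERK and ATF4 targets had 9 lower and 8 higher (median -0.01). Sesn2 was higher by 0.52 (SE 0.22) and Trib1 had a difference of -0.42 (SE 0.18), both without overlap, where 3.32% and 5.76% of all genes were. For Sesn2 the groups barely parted, with targeted replicate 3 at 6.56 and non-targeted replicate 3 at 6.55. Other stress transducers had 8 of 17 lower (median 0.02), among them Nck1 at -0.67 (SE 0.22). Cytosolic heat shock genes had 10 of 12 lower (median -0.19), with Hspb1 at 7.74, 8.60 and 8.24 against 7.23, 7.38 and 7.20 and Hspa8 at 13.01, 13.13 and 13.02 against 12.64, 12.81 and 12.74. Their log2 differences were -0.92 (SE 0.23) and -0.32 (SE 0.14). Both had all targeted values below all non-targeted ones, as did 3 of the 12 genes in all, where 5.76% of all genes did. Mitochondrial chaperones and proteases had 5 lower and 5 higher (median -0.05), with Hspd1 at 0.92 (SE 0.31) and Clpx at -0.72 (SE 0.24).

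**Figure D5:**
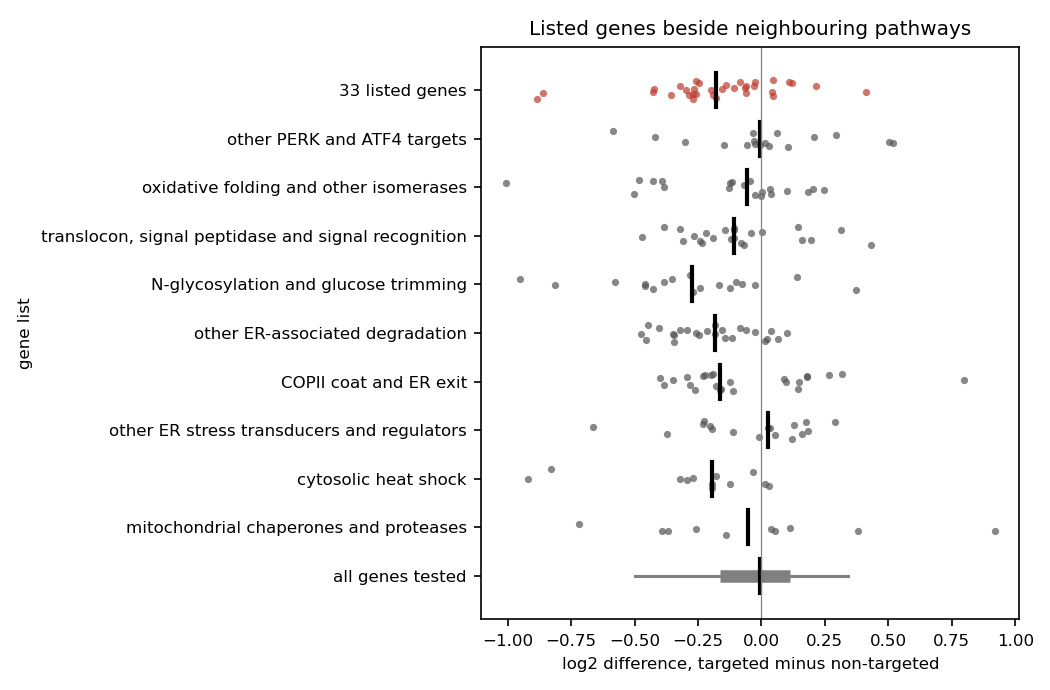
Log2 difference (targeted minus non-targeted) of each tested gene in the 33-gene list (red) and in 9 neighbouring lists (grey), with black bars at the medians. At the bottom the thick bar spans the middle 50% of all 13292 tested genes (-0.16 to 0.11) and the thin line the 5th to 95th percentile (-0.50 to 0.34), and the median of the 33 genes is at -0.18.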

How the data were processed

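The deposited values are linear intensities. Per the submitters' processing notes, the authors ran RMA through Expression Console 1.4, made by Affymetrix. Their annotation and genome build: not given in the sources used here. RNA came from sorted cells and was processed with the WT Pico kit, per the labels. Log2 was taken. The table held 35556 probe sets on 6 arrays. Of these, 21789 named 1 gene, 1621 several and 12146 were unlisted in GEO's platform annotation. Symbols were updated through Entrez identifiers in the RefSeq table of GRCm38.p6 (21698 matched). The brightest probe set per gene was kept, and the dimmest 33.3% of genes were left out.

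Targeted and non-targeted arrays entered a limma model (version 3.58.1, R 4.3.3, lmFit and eBayes, no covariate, 2-sided), with Benjamini-Hochberg adjustment over 13292 genes and a threshold of 0.05. The fit was tested on simulated data with independent arrays and planted differences wider than those of the 33 genes. That check does not cover smaller differences or shared mice. The number of arrays limits the precision. Members, roles, arms, related lists and motifs were chosen with earlier results of these data known, and no list was tested. Named genes are all 33 members and, from each other list, among the 4 with the smallest p. Of 183 symbols in the related lists 10 had no value used here and 7 were dim. Alternatives were other filters, scalings, variance models, probe set means, the replicate number as a block and leaving out arrays. Figures were drawn with matplotlib 3.10.9.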

Additional observations from a re-analysis of the deposited data

How the results depend on the processing

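Over 18 alternative settings 0 of the 33 genes passed limma's threshold, and the number lower in targeted cells ran from 23 to 27. Genes called over all those tested were 0 in most settings, with 1 higher gene under array weights and 1 under the fixed replicate block. Deviations of same-numbered arrays correlated at -0.26, -0.12 and 0.07 for replicates 1, 2 and 3. The highest correlations were between targeted replicate 1 and non-targeted replicate 2 (0.32) and between targeted replicate 3 and non-targeted replicate 1 (0.20). Deviations were taken from each population's own mean of 3 arrays, which ties these values together, so they cannot decide which arrays pair. The labels do not say which arrays share a mouse, so the numbers were not taken as pairs. The model without a block leaves the sharing of mice out. With the replicate block, fixed or random, 26 genes were lower and the median was -0.18. Each number occurs once per population, so a block cannot change these differences, only their SE and p. Leaving out 1 array at a time, the count ran from 23 to 27 and the median from -0.27 to -0.08.

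The sign of the difference turned in at least 1 setting for the genes below, among them Derl2, Pdia4, Xbp1 and Ern1, whose differences were 0.21, -0.20, -0.18 and -0.16. Dnajb11 was at 0.04 (quantile), 0.03 (cyclic loess) and 0.32 (array weights), Syvn1 at 0.02 and Ssr1 at 0.02 (cyclic loess), Hyou1 at -0.02 (array weights), and Pdia4 at 0.16 (mean of probe sets). With replicates 2 and 3 only, Manf was at -0.03, Derl3 at 0.10, Trib3 at 0.18 and Ssr1 at 0.00. Leaving out each array gave -0.06 to 0.13 for Hyou1, -0.29 to 0.26 for Dnajb11, -0.04 to 0.16 for P4hb, -0.18 to 0.14 for Syvn1, -0.01 to 0.08 for Sel1l, -0.09 to 0.41 for Derl2, -0.10 to 0.05 for Derl3, -0.37 to 0.04 for Xbp1, -0.40 to 0.08 for Ern1, -0.19 to 0.06 for Trib3 and -0.10 to 0.02 for Ssr1. The cause was not tested. In the 200 bases before the start alone, 9 genes still held an ER stress element. The signal of the dimmest genes is the closest to background, and no detection calls were used.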
